A study of Zygosaccharomyces bailii with 18 samples.

Results

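Autophagy and vacuolar sorting genes of the acid-tolerant spoilage yeast Zygosaccharomyces bailii were followed through 6 comparisons of the parental strain and a mutant lacking the gene of the transcription factor ZbHaa1. An ORF was a member when its Saccharomyces cerevisiae homologue bore 1 of a fixed set of gene names followed by a number, such as ATG, VPS, PEP, SNX, PRB, PRC, YPT, AVT or VBA, or was SNF7. The rule found 29 ORFs among the 1607 ORFs that the study's supplementary tables hold, of which 1296 have a named homologue. Each of those 1607 ORFs was called changed in at least 1 of 4 comparisons, so the members are not all autophagy and sorting genes of the genome, which has 5141 annotated protein-coding ORFs. The names ATG18, PEP1 and VBA1 are shared by several ORFs, which are told apart by their ORF number.

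Autophagy encloses cytoplasm in a double membrane and delivers it to the vacuole, the lytic compartment of yeast. The Atg1 kinase with Atg13 starts the process, Atg9 vesicles with the lipid transfer protein Atg2 and its partner Atg18 build the membrane, Atg8 becomes attached to it, and Atg15 breaks down the inner vesicle inside the vacuole. Proteases reach the vacuole by a separate sorting route from the Golgi apparatus through endosomes, and amino acids released by digestion leave it through transporters of its membrane. All gene functions given here are those known for S. cerevisiae.

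The series holds 18 libraries in 6 groups of 3, made from the haploid parental strain IST302 and from the deletion mutant Zbhaa1∆. Cells of each strain grew at pH 4.0 in mineral medium and were left unstressed, exposed for 1 h to 140 mM acetic acid, or exposed for 1 h to 0.08 mM copper sulfate. The unstressed samples were taken just before acid or copper was added, 1 h ahead of the stressed ones, so growth over that hour and the stress cannot be told apart. The groups differ in no other agent or allele named in the labels.

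The values were the log2 fold change, the average log2 CPM (CPM, the count of a gene scaled to the size of its library) and the FDR that the authors deposited for each called ORF. A called ORF, written "listed" here, changed by more than 1.5-fold in its comparison with an FDR under 0.05, and "rose", "fell", "higher" and "lower" are used of listed ORFs only. An ORF that is not listed did not pass, and its size of change is unknown. Values and counts of single libraries were not used here, so fold changes and levels carry no replicate error, and each FDR rests on 3 libraries against 3. The level of each group in log2 CPM was computed from the fold change and the average, and is called the implied level. The copper table of both strains was taken as mutant against parental cells from the labels, which name it under the copper libraries of both strains, while captions in the supplement describe the same ORFs as stressed against unstressed mutant cells. Its implied reference level lay a median absolute 0.03 log2 CPM from that of copper-treated parental cells over 105 ORFs, and 0.34 from that of unstressed mutant cells over 81 ORFs. The acid table of both strains was also taken as mutant against parental cells. A caption in the supplement describes its ORFs, too, as stressed against unstressed mutant cells, and its reference level was not compared in this way. The deleted gene, ZBIST_2620, was listed in 0 of the 6 tables, which therefore hold no check of the mutant through it.

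Most members were listed in 1 comparison, that of the mutant with the parental strain when both were in copper. There, 23 of the 29 members were higher in the mutant and 1 was lower, and 5 were not listed. In the parental strain, 3 members rose in copper, while 1 rose and 3 fell in acetic acid. In the mutant, 3 fell in acetic acid, and its own response to copper was not among the comparisons. No member was listed between the strains in acetic acid, where 56 ORFs were listed (1.14% of the genes tested), or without stress, where 14 were (13 of them among the 5141 annotated ORFs, 0.253%). Of the 29 members, 24 were listed in 1 table and 5 in a pair of tables.

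**Figure D1:**
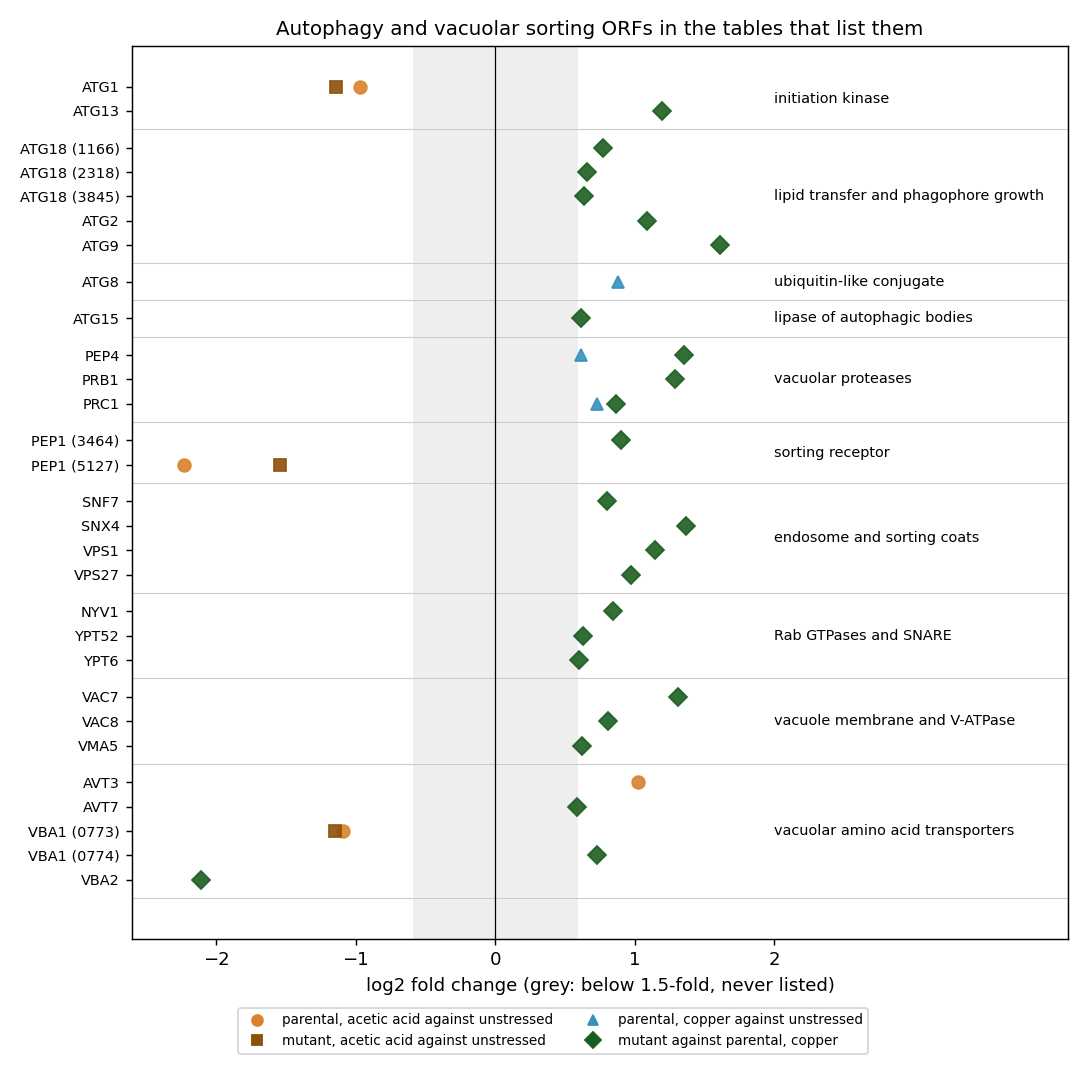
Deposited log2 fold change (horizontal axis) of each of the 29 member ORFs (rows, grouped by role), with 1 symbol for each comparison that lists it and the range below 1.5-fold in grey. Of the 24 members listed between the strains in copper (diamonds), 23 lie to the right of 0 and VBA2 lies to the left, and the acid values of ATG1, PEP1 ZBIST_5127 and VBA1 ZBIST_0773 lie to the left in both strains.

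Of the 24 members listed between the strains in copper, 23 were higher in Zbhaa1∆ than in the parental strain. That is 95.8% of the listed members, beside 51% of all 1301 listed ORFs and 48.9% of the 1067 with a named homologue. The 23 are 79.3% of the 29 members, where 41.3% of the 1607 ORFs and 13.5% of the genes tested were higher. However, 22 of the 29 are members through this table alone, so their being listed in it is fixed by the rule, and these last shares carry no weight. The direction of a listed ORF was not used by the rule, but the members were chosen with earlier results of these data known. The share of listed members that were higher is therefore a description, and no test was made of it. The median size of the difference lay near that of all higher ORFs. The median log2 fold change was 0.84 over the 23 members, from 0.59 to 1.61, and 0.88 over all 663 higher ORFs. More than 2-fold differences were found for 8 of the 23 members and for 40.3% of the 663 ORFs, and 7 of the 24 listed members lay within 0.1 of the threshold on the log2 scale, against 15.2% of the 1301 ORFs. The median FDR was 0.00628 over the higher members and 0.00650 over the 663 ORFs. The average log2 CPM of the higher members had a median of 6.79, against 6.22 over the 663.

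**Figure D2:**
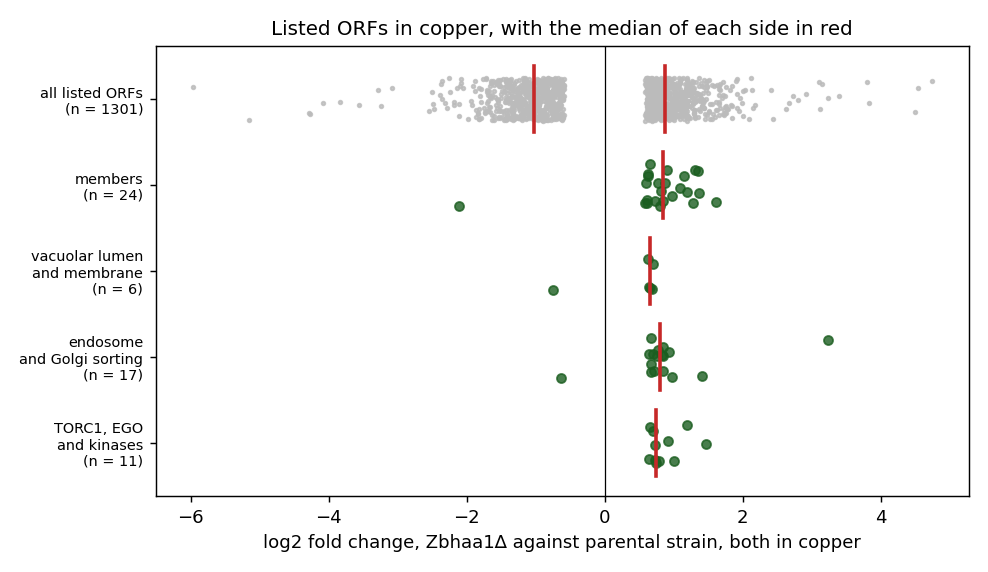
Deposited log2 fold change of Zbhaa1∆ against the parental strain in copper (horizontal axis), 1 point per listed ORF, for all 1301 listed ORFs, the 24 listed members and 3 related lists, with red bars for the median of each side that has more than 1 ORF. The higher members have a median of 0.84, beside 0.88 for all higher ORFs, and VBA2 is the 1 member on the lower side.

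The 5 ORFs named ATG9, ATG2 or ATG18, for proteins that build the autophagosome membrane, were all higher in the mutant, where 51% of all 1301 listed ORFs were. All 5 are members through the copper table of both strains alone. ATG8, whose product becomes attached to that membrane, was not listed between the strains. ATG9, whose product is a membrane protein of the vesicles that seed the autophagosome, had the largest value of the 23, at an implied 4.65 log2 CPM in the parental strain and 6.26 in the mutant. Its log2 fold change was 1.61 (FDR = 4.78e-04), at rank 64 among the 663 higher ORFs. ATG2, which encodes the lipid transfer protein that feeds the growing membrane, stood at 6.42 in the parental strain and 7.51 in the mutant, a log2 fold change of 1.09 (FDR = 1.71e-04). All 3 ORFs named ATG18, a family of phosphoinositide-binding proteins, were higher by smaller amounts. Their log2 fold changes were 0.77 for ZBIST_1166, 0.66 for ZBIST_2318 and 0.63 for ZBIST_3845, with FDR of 0.0151, 0.0386 and 0.0402. The parental level of the 3 ATG18 ORFs ran from 4.49 to 4.85 and the mutant level from 5.15 to 5.62 log2 CPM.

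The start and the end of the process were represented by few ORFs. ATG13, the regulatory subunit of the initiating kinase, stood at an implied 3.06 log2 CPM in the parental strain and 4.25 in the mutant (log2 fold change 1.20, FDR = 0.0121). ATG1, the kinase itself, was not listed in copper. ATG15, the lipase that opens autophagic bodies in the vacuole, stood at 5.83 in the parental strain and 6.45 in the mutant (log2 fold change 0.62, FDR = 0.0291). ATG8, the ubiquitin-like protein that is joined to the membrane lipid, was not listed between the strains. It was listed only in the response of the parental strain to copper, where it was higher (log2 fold change 0.88, FDR = 0.0255). Its implied level there was 4.43 log2 CPM before copper was added and 5.31 after 1 h of exposure. Whether ATG8 differed between the strains in copper cannot be read from its absence. No comparison set the mutant in copper against unstressed mutant cells, so a response of ATG8 in the mutant could not be seen.

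The vacuolar proteases PEP4, PRB1 and PRC1 were higher in the mutant in copper and had the highest implied levels of the 24 listed members. CPM is not divided by transcript length here, because the library method reads a tag from the 3′ end of each transcript. PRB1, the subtilisin-like proteinase B, reached an implied 9.66 log2 CPM in the parental strain and 10.95 in the mutant. Its log2 fold change was 1.28 (FDR = 4.22e-04). PEP4, the aspartyl protease that activates the other vacuolar proteases, had a log2 fold change of 1.35 (FDR = 4.68e-05), the smallest FDR of the members in this comparison. PRC1, carboxypeptidase Y, had one of 0.87 (FDR = 0.00744).

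PEP4 and PRC1 were also the members that rose in the parental strain under copper and were higher again in the mutant. PEP4 stood at 8.26 log2 CPM in unstressed parental cells, 8.88 in parental cells in copper and 10.26 in the mutant in copper. Its deposited log2 fold changes were 0.62 for the parental response (FDR = 0.0271) and 1.35 for the difference between the strains. PRC1 stood at 8.22, 8.94 and 9.84 log2 CPM in the same groups, with log2 fold changes of 0.73 (FDR = 0.0462) and 0.87. The sum of both steps was 1.97 for PEP4, a 3.91-fold difference between the mutant in copper and unstressed parental cells, and 1.59 for PRC1, a 3.02-fold difference. Both comparisons use the copper-treated parental libraries, so their values are not independent, and the sums carry no test. The level of those libraries computed from either table differed by 0.03 log2 CPM for each gene. In the parental copper response, 10.3% of the 29 members were higher, where 7.53% of the 1607 ORFs and 2.45% of the genes tested were higher. Of these members, ATG8 is a member through that response alone, so the shares carry no weight.

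**Figure D3:**
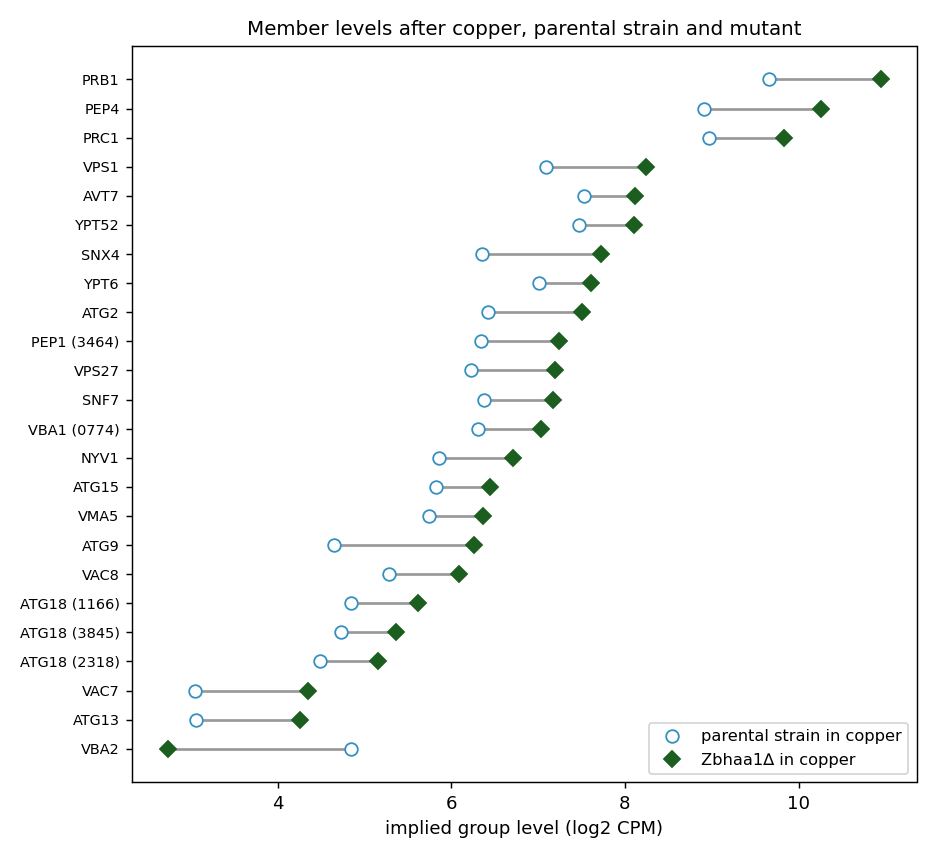
Implied level in log2 CPM (horizontal axis) of the 24 members listed between the strains in copper, with open circles for the parental strain and filled diamonds for Zbhaa1∆, ordered by the mutant level. The proteases PRB1, PEP4 and PRC1 lie at the top, from 9.84 to 10.95 log2 CPM in the mutant, and VBA2 alone is lower in the mutant.

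Genes of sorting between the Golgi apparatus, the endosome and the vacuole were also among the ORFs higher in the mutant in copper, and those described here are members through that table alone. PEP1 ZBIST_3464, which encodes the receptor that carries carboxypeptidase Y towards the vacuole, stood at 6.34 log2 CPM in the parental strain and 7.24 in the mutant (log2 fold change 0.90, FDR = 9.31e-04). The 4 ORFs of endosome and sorting coats had log2 fold changes from 0.80 to 1.36 with a median of 1.06. Among them, SNX4, a sorting nexin that returns cargo from endosomes and acts in selective autophagy, stood at 1.36 (FDR = 1.12e-04). VPS1, a dynamin-like GTPase that cuts vesicles from membranes, stood at 1.14 (FDR = 1.28e-04). VPS27, which binds ubiquitin-tagged cargo at the endosome, stood at 0.97 (FDR = 4.13e-04), and SNF7, the main filament protein of the ESCRT machinery that buds vesicles into the endosome, at 0.80 (FDR = 0.00350). The implied levels of these 4 genes ran from 6.22 to 7.10 log2 CPM in the parental strain and from 7.17 to 8.24 in the mutant.

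The genes of membrane fusion and of the vacuole membrane described here were higher in the mutant in copper too, and are members through that table alone. The transporters of the vacuole membrane, given next, include VBA2, which was lower. NYV1, the SNARE protein of the vacuole, had a log2 fold change of 0.84 (FDR = 0.00217). The small GTPase genes YPT52, of the endosome, and YPT6, of the Golgi apparatus, stood at 0.63 and 0.60 (FDR = 0.0269 and 0.0360), both close to the threshold. VAC7, which activates synthesis of the signalling lipid that controls vacuole size, stood at 1.31 (FDR = 0.00628), with low implied levels of 3.04 in the parental strain and 4.35 in the mutant. VAC8, a vacuolar membrane protein used in vacuole inheritance and selective autophagy, stood at 0.81 (FDR = 0.00531). VMA5, a subunit of the proton pump that acidifies the vacuole, stood at 0.62 (FDR = 0.0289) and was the single V-ATPase ORF among the members.

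In copper, the transporters of the vacuolar membrane were the role with members listed in both directions. VBA2, a vacuolar transporter of basic amino acids, was lower in the mutant in copper, at an implied 4.84 log2 CPM in the parental strain and 2.74 in the mutant. Its log2 fold change of -2.11 (FDR = 1.44e-04) ranked 27 by size among the 638 lower ORFs, whose median was -1.03. One of 29 members is 3.45%, where 39.7% of the 1607 ORFs and 12.9% of the genes tested were lower. These shares carry no weight, because 22 of the 29, with VBA2 among them, are members through this table alone. AVT7, an exporter of neutral amino acids from the vacuole, was at the threshold with 0.59 (FDR = 0.0418) and had the smallest value of all 663 higher ORFs. VBA1 ZBIST_0774 had a log2 fold change of 0.73 (FDR = 0.00891). The 2 VBA1 ORFs, ZBIST_0773 and ZBIST_0774, are neighbours on a contig and were listed in different comparisons, the former in acetic acid and the latter in copper.

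In acetic acid few members were listed, and most of these fell, as did most of all listed ORFs. Only 22.2% of the 297 ORFs listed in the parental strain and 23.5% of the 268 listed in the mutant were higher. In the parental strain, 10.3% of the 29 members were lower, where 14.4% of the 1607 ORFs and 4.7% of the genes tested were lower. In the mutant, 10.3% were again lower, where 8.65% of the 1607 ORFs and 3.99% of the 5141 annotated ORFs were lower. ATG1, VBA1 ZBIST_0773 and PEP1 ZBIST_5127 were lower in both strains. These ORFs are members only because they were listed in the parental acid response. Their being listed there is fixed by the rule, so the shares of members given above carry no weight. The responses of the strains were measured in separate libraries, and no control is shared. The log2 fold change of ATG1 was -0.97 in the parental strain (FDR = 0.0131), from an implied 4.46 to 3.49 log2 CPM, and -1.14 in the mutant (FDR = 2.13e-04), from 4.21 to 3.07. The log2 fold change of VBA1 ZBIST_0773 was -1.09 in the parental strain (FDR = 0.00220), from 4.47 to 3.38, and -1.15 in the mutant (FDR = 2.77e-05), from 4.45 to 3.30. PEP1 ZBIST_5127 had values of -2.23 in the parental strain (FDR = 6.75e-04) and -1.54 in the mutant (FDR = 0.0489). Of the 268 ORFs listed for the mutant in acid, 93 are outside the supplementary tables and so have no homologue name here.

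PEP1 ZBIST_5127 is the 1 ORF on its contig and was expressed at a low level, at 2.57 log2 CPM in unstressed parental cells, 0.33 in parental cells in acid, 1.84 in unstressed mutant cells and 0.30 in mutant cells in acid. Both acid-treated levels are thus near 1 CPM. The other PEP1 ORF, ZBIST_3464, was not listed in either acid response. The strains' responses could not be tested against each other from these tables. The mutant value minus the parental value was -0.17 for ATG1, -0.06 for VBA1 ZBIST_0773 and 0.69 for PEP1 ZBIST_5127, where the median over the 124 ORFs listed in both responses was 0.12 and the middle part of them, between the quartiles, ran from -0.08 to 0.40.

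The 1 member that rose in acetic acid was AVT3, an exporter of neutral amino acids from the vacuole, in the parental strain. Its implied level went from 3.48 to 4.51 log2 CPM, a log2 fold change of 1.03 (FDR = 0.0454). That is 3.45% of the members, where 4.11% of the 1607 ORFs and 1.34% of the genes tested were higher. These shares carry no weight, because AVT3 is a member through this response alone. AVT3 was not listed in the acid response of the mutant or between the strains in acid, and the responses of the strains were not tested against each other. The FDR of the higher and of the lower ORFs in the parental acid table do not rank as 1 list. When the p-values of the 297 ORFs were adjusted as 1 list over 4917 genes, the FDR was 0.0411 for AVT3, 0.0112 for ATG1, 0.00188 for VBA1 ZBIST_0773 and 5.88e-04 for PEP1 ZBIST_5127, all still below 0.05.

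**Figure D4:**
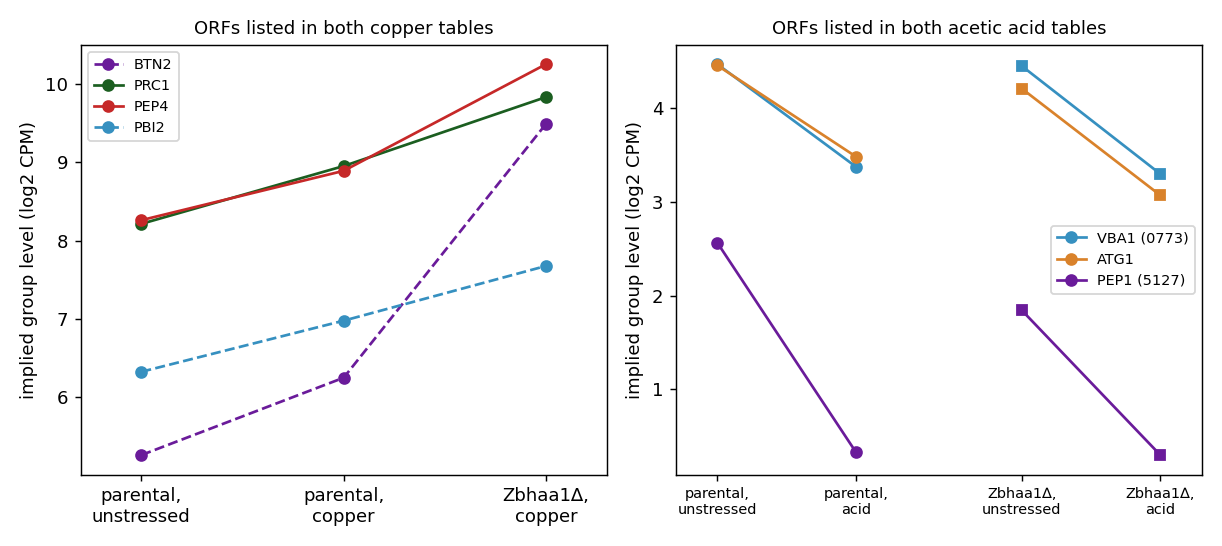
Implied level in log2 CPM (vertical axes) of ORFs listed in both tables of a stress, with members as solid lines. On the left, PEP4 and PRC1, with the related genes BTN2 and PBI2 as dashed lines, increase from unstressed parental cells through parental cells in copper, drawn at the mean of the levels from both tables, to Zbhaa1∆ in copper. On the right, ATG1, VBA1 ZBIST_0773 and PEP1 ZBIST_5127 decrease in acetic acid in the parental strain (circles) and in Zbhaa1∆ (squares).

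Genes that work beside the members were taken from 3 related lists, which hold names of the same supplementary tables and so, like the members, hold ORFs listed in at least 1 comparison. In the mutant in copper, 41.3% of the 1607 ORFs were higher and 39.7% were lower, and 51% of the ORFs listed there were higher. The names were drawn from ORFs already listed, so the shares over the 1607 ORFs carry no weight. For the same reason, no count supports a direction of a list. Of 11 ORFs for the TORC1 complex, its vacuolar EGO anchor and other regulators of autophagy, 11 were higher. Their log2 fold changes had a median of 0.74, beside 0.88 over all higher ORFs. UME6, a repressor of meiotic genes that also represses ATG8, had the largest value of this list, 1.47 (FDR = 1.61e-04). KSP1, a kinase that restrains autophagy, had the next, 1.19 (FDR = 1.34e-04), and also rose in the parental strain in acetic acid, by 0.65 (FDR = 0.0116). The list thus holds activators and repressors of autophagy, and its count gives no direction for the process.

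Of 20 other ORFs of endosome and Golgi sorting, 16 were higher in the mutant in copper, with a median of 0.79, and 1 was lower. BTN2, which gathers misfolded proteins and acts in transport from endosomes to the Golgi apparatus, had the largest value, 3.23 (FDR = 2.46e-07). It rose in the parental strain by 1.04 in acetic acid (FDR = 5.4e-06) and by 0.98 in copper (FDR = 0.00923). HSE1, the partner of Vps27 in cargo recognition, followed at 1.41 (FDR = 1.25e-04), and the lower ORF was MRL1, a sorting receptor related to mammalian mannose 6-phosphate receptors, at -0.63 (FDR = 0.0452). In acetic acid, 3 ORFs of this list fell in the parental strain, with the ESCRT regulator IST1 at -1.08 (FDR = 0.0220) and SSH4 ZBIST_1927, an adaptor for ubiquitination of membrane proteins, at -0.86 (FDR = 0.0211) as the largest.

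Of 9 other ORFs of the vacuolar lumen and membrane, 5 were higher in the mutant in copper and 1 was lower. NPC2, a sterol transfer protein of the vacuole, stood at 0.70 and PBI2, the cytosolic inhibitor of proteinase B, at 0.69 (FDR = 0.0125 and 0.0147), while the vacuolar calcium exchanger VCX1 stood at -0.75 (FDR = 0.00777). PBI2 was listed beside its target protease PRB1, which had a log2 fold change of 1.28. In the parental strain in copper, 3 of the 9 ORFs rose, where 7.53% of the 1607 ORFs did. The names were drawn from ORFs listed in that comparison too, so this count carries no weight. The ribonuclease gene RNY1 led there at 0.84, followed by TFS1, the inhibitor of carboxypeptidase Y, at 0.72 (FDR = 0.0200 and 0.0135). PBI2 also rose there, by 0.64 (FDR = 0.0148). In the parental strain in acetic acid, the trehalase gene ATH1 at 0.89 and TFS1 at 0.63 rose (FDR = 0.00458 and 0.0159). None of the 40 ORFs of these lists was listed in the acid response of the mutant, or between the strains in acetic acid or without stress.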

How the data were processed

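The libraries were made with a 3′ tag method. The submitters' processing notes name STAR 2.5.2a for alignment, HTSeq for counting and edgeR. After a filter at 1 CPM and TMM scaling, the authors compared groups of 3 libraries with edgeR. The log2 fold changes and average log2 CPM were deposited by the authors in 6 tables. The FDR, an adjusted p-value, was also computed by the authors with edgeR and deposited. These tables hold only ORFs below an FDR of 0.05 and above a fold change of 1.5, so no model was fitted here. What the table on the mutant in acetic acid compares was read from its name.

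Homologue names came from the supplementary tables, in text read from page images, and every ORF that met the rule is named. From the related lists, the 2 largest changes per list, direction and comparison are named, and PBI2 in the parental strain was added after its values were seen. The members and lists were chosen with earlier results of these data known. Implied levels give both groups equal weight on the linear scale. For 4 comparisons, how many genes entered the test was computed as FDR times rank over p at the first ranks, with the p-values of the supplementary tables. A RefSeq gene table of the strain IST302 gave contigs and neighbours only, and all 29 members were found in it. Promoter motifs were not analysed here. Calculations used Python 3.11.15, numpy 2.4.6, pandas 2.3.3 and matplotlib 3.10.9. Only the computation of implied levels was tested on simulated data, and the member rule on made-up entries. Stricter thresholds, a level filter, single-copy names and another split of levels were tried as alternatives.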

Additional observations from a re-analysis of the deposited data

How the results depend on the processing

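No paired analysis was possible because the deposited tables hold no values per library, and for the same reason no library could be left out and no other normalization tried. With an FDR below 0.01, the members higher in the mutant in copper numbered 14 in place of 23, those higher in the parental strain in copper 0 in place of 3, and those higher in the parental strain in acetic acid 0 in place of 1. With a fold change above 2, 8 were higher in the mutant in copper and 0 in the parental strain in copper. With an average log2 CPM of at least 4, 0 members in place of 3 were lower in the mutant in acetic acid. With ORFs that share a homologue name left out, 1 in place of 3 was lower in acetic acid in each strain, and 18 were higher in the mutant in copper. Among the related lists in copper, an FDR below 0.01 left 0 of 5 higher vacuolar ORFs, 7 of 16 endosome and Golgi ORFs and 5 of 11 TORC1, EGO and kinase ORFs, and a fold change above 2 left 0, 2 and 2. VBA2 was lower under all 4 alternatives. The median of the higher members in copper lay between 0.81 and 1.03 with an FDR below 0.01, the level filter or single-copy names, and was not computed for a fold change above 2, which sets its lower end. Taking the average as the mean of both log2 levels moved an implied level by at most 0.39, for PEP1 ZBIST_5127 in the parental acid table, with a median of 0.07 over 34 values. The sums became 1.99 for PEP4 and 1.62 for PRC1 from the implied levels.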

Other observations

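The ORFs beside the members on their contigs were looked at after the members' values had been seen. The 29 members lie on 17 of the 84 contigs that hold coding ORFs and have 54 direct neighbours that are not members. In the mutant against the parental strain in copper, 11.1% of the neighbours (6 ORFs) were higher and 16.7% (9 ORFs) were lower, where 12.9% and 12.4% of the 5141 annotated ORFs were. Both shares of the neighbours are near those of all annotated ORFs.

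ATG9, the member with the largest increase at 1.61, lies between 2 lower ORFs, the RNA polymerase III subunit gene RPC53 at -1.07 (FDR = 0.0142) and the ribosome biogenesis gene NOP14 at -1.002 (FDR = 7.21e-04). PEP4 and PRB1 each have a lower neighbour too, the checkpoint kinase gene RAD53 at -0.96 (FDR = 0.00750) and the ribosome biogenesis gene UTP23 at -0.97 (FDR = 0.00338). VBA2, the member that was lower, at -2.11, lies next to AGP3, an amino acid permease gene, which was lower as well, at -2.50 (FDR = 0.00115). ATG13 at 1.20 lies next to GDB1, the glycogen debranching enzyme gene, at 1.14 (FDR = 6.4e-04). VPS27 at 0.97, VPS1 at 1.14 and VAC8 at 0.81 also have a higher neighbour, in that order RAD14 at 1.14, PAP1 at 0.67 and EDC3 at 0.70. Further lower neighbours are MET14 at -0.83 beside VPS1, CAM1 at -0.68 beside VMA5 and ZBIST_0602 at -0.996 beside YPT6. ENP1, at -1.49, lies beside VBA1 ZBIST_0773. AVT3, which was not listed between the strains in copper, lies between 2 higher ORFs, the proteasome ATPase gene RPT1 at 0.77 (FDR = 0.00590) and the chaperone gene SSE1 at 1.06 (FDR = 5.81e-04).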
